A study of Bos taurus with 24 samples.

Results

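Gluteus medius, a large muscle of the bovine hindquarter, was sampled at 2 needle biopsies from the 6 crossbred beef cows that gained the most weight among 121 cows in a feeding trial. The 12 arrays of these cows, of 24 in the series, were chosen by the titles that name the high gain class and the biopsy number, and the animal number in the title joined each cow's 2 arrays. The first group was sampled on day 105 of 112 days of restriction, when the diet supplied 120 kcal of metabolizable energy per kg of body weight to the power 0.75. The second group was sampled on day 49 of the 112 days that followed, when feed was offered without limit. The titles carry biopsy numbers 1 and 2 without the diet, so biopsy 1 was taken to be restriction from the order of the protocol. Gain was calculated from the free feeding period, so the cows were chosen by how they grew after restriction ended, and their ages are not stated. The other 12 arrays came from the 6 lowest gaining cows, sampled and fed in the same way. The series asked which muscle transcripts go with weight gain under the 2 diets.

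Skeletal muscle lowers protein synthesis and burns stored fat when feed is scarce, and it rebuilds protein, glycogen and lipid when feed returns. Ruminants make fatty acids mainly from acetate, which acetyl-CoA synthetases activate, and most of that synthesis takes place in fat cells, some of which lie between the muscle fibres. A needle biopsy holds fibres together with fat, connective tissue, vessels, nerve and blood cells. In such bulk tissue, fewer cells of a type and less of a transcript per cell cannot be told apart.

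Levels are given on the log2 scale, so a difference of 1 is a doubling in linear terms, and each change is free feeding minus restriction. Medians over all features of the deposited values were 7.68 to 7.74 on the restriction arrays and 7.79 to 7.85 on the free feeding arrays. The highest value was 19.81 on every restriction array and 19.93 on every free feeding array, so each biopsy formed a set of its own and biopsy and set cannot be told apart. The 12 columns were therefore quantile normalized together, which equalises distributions but leaves any shift of single genes between sets in place. All 14 tested muscle fibre markers were bright, with a mean level of 19.39 to 19.62 on the restriction arrays and 19.05 to 19.58 on the free feeding arrays. Most of these markers lay close to the top of the scale, where changes cannot be seen. The free feeding array of cow 4 stood apart from the others, with a median correlation of 0.942 with its group, while the other 11 arrays reached at least 0.966. Results that rest on that cow are given with and without it.

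Of 14202 genes tested, 3275 (23.1%) differed between free feeding and restriction at an adjusted p under 0.05, by limma with each cow as a block and Benjamini-Hochberg adjustment. Of these, 1835 genes (12.9% of those tested) were higher in free feeding and 1440 (10.1%) were lower. The 2 groups of 6 arrays did not overlap for 1474 of the genes called, which is 10.4% of the genes tested. The split depended on scaling, since the deposited values without further normalization gave 2728 higher and 980 lower. Those values moved the median change of all genes from 0.02 to 0.12. In the quantile normalized values 56.0% of the calls were increases, and in the deposited values 73.6% were.

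Odorant receptor genes, which serve smell in the nose and are not known to be needed by muscle, gave a measure of how far genes moved between the 2 array sets. In a fit that kept dim genes, 243 of 806 odorant receptor genes (30.1%) were called, 136 higher and 107 lower. The share over all 18444 genes in that fit was 26.7%, and over the 17638 other genes 26.5%. Among the 276 odorant receptor genes bright enough to enter the filtered fit, 67 were called (24.3%, beside 23.1% of all genes in that fit). The number of calls therefore did not set muscle genes apart from odorant receptor genes. Sizes were close: the median change in either direction was 0.24 for odorant receptor genes and 0.26 for other genes. Of the odorant receptor genes 99% changed by less than 1.07, and of the other genes 99% by less than 1.38. The largest change was 1.32 among 806 odorant receptor genes and 3.67 among 17638 other genes, sets of unequal size. The value of 3.67 is that of THRSP, which was not called in the filtered fit and changed by up to 10.84 in a single cow. Past that limit of 1.07 lay 210 of the increases called (1.48% of the genes tested) and 137 of the decreases (0.965%). A test in limma that each change exceeds 1.07 (treat) called 0 genes, with a smallest adjusted p of 0.55 and 89 genes at an unadjusted p under 0.05. The median level was 6.36 for these genes and 7.92 for other genes, so they do not measure a shift of bright genes between sets.

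**Figure D1:**
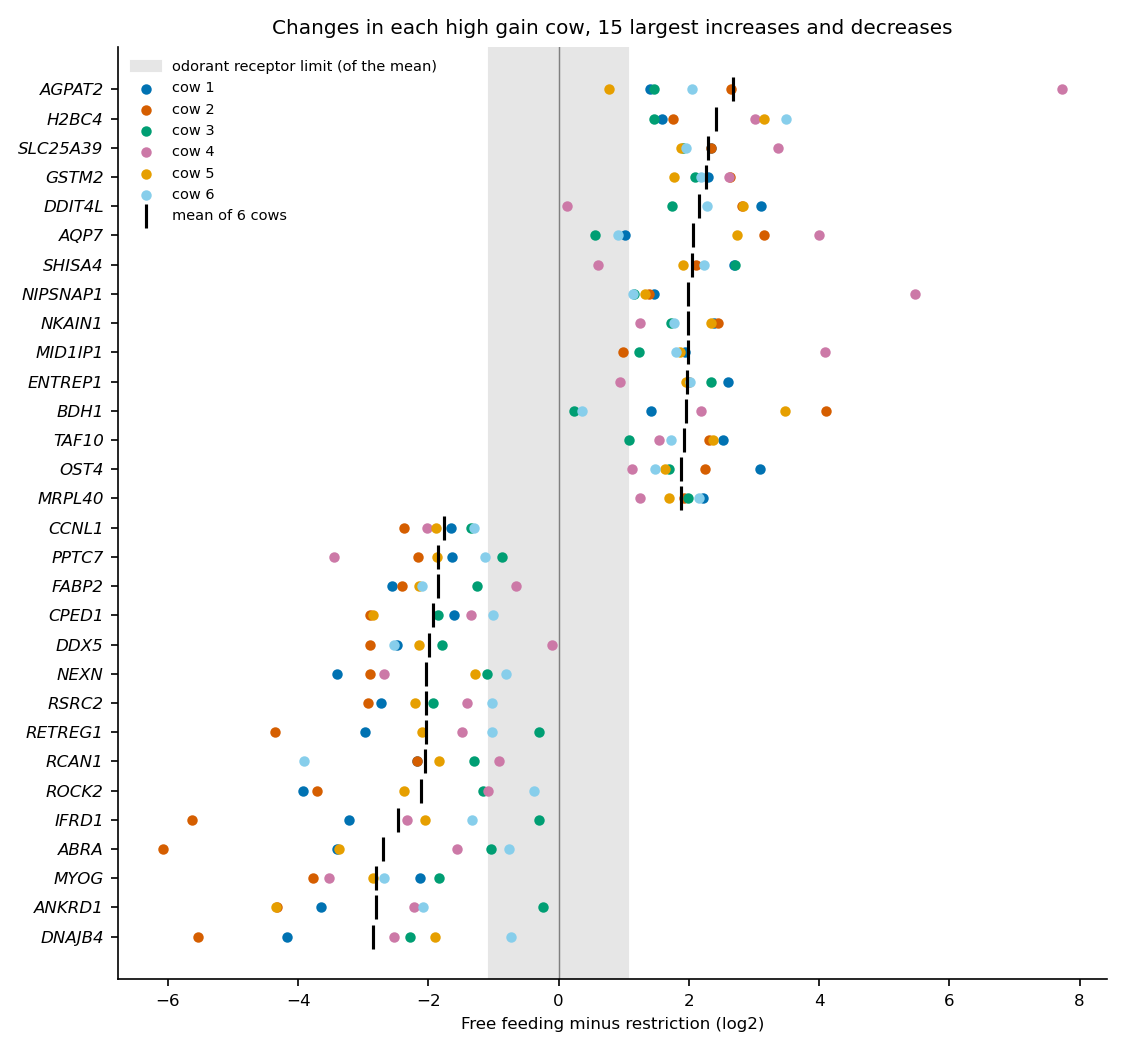
Change of each gene in each high gain cow, free feeding minus restriction on the log2 scale. Shown are the 15 largest increases and 15 largest decreases among called genes whose change had the same sign in all 6 cows. Coloured points are cows, black bars are means over 6 cows, and the grey band marks the odorant receptor limit of 1.07 in either direction, within which 99% of those genes had their mean change.

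The 15 largest increases ranged from 1.87 to 2.68 and the 15 largest decreases from -1.77 to -2.86. Moving the same way in all 6 cows was a condition for these 30 genes, so it is not a result. Of the 3275 genes called, 2868 met that condition. For 21 of the 30 genes the free feeding and restriction arrays did not overlap, beside 1474 of all 3275 genes called. When each cow was left out in turn, 22 genes were called in all 6 repeats, 11 of the increases and 11 of the decreases. Among the increases were the triglyceride enzyme AGPAT2, the ketone body enzyme BDH1, the mitochondrial carrier SLC25A39 and the glutathione transferase GSTM2. Among the decreases were the stretch-responsive ANKRD1, the co-chaperone DNAJB4, the myogenic factor MYOG and the speckle proteins CCNL1 and RSRC2. These 30 were chosen by their change, so their sizes are a description.

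Among the increases, 4 genes of glutathione handling, selenoproteins and mitochondria separated the 2 groups with no overlap. GSTM2, a glutathione transferase that detoxifies reactive lipids, had levels of 12.40 to 13.62 in restriction (median 12.85) and 14.47 to 16.24 in free feeding (median 15.06). No restriction array reached the lowest free feeding array, and the change was 2.27 ± 0.17 (SE, n = 6 cows; adjusted p = 0.00152, limma). SLC25A39, the carrier that brings glutathione into mitochondria, lay at 9.28 to 9.69 in restriction (median 9.46) and 11.17 to 13.05 in free feeding (median 11.64). Its change was 2.30 ± 0.21 (SE; adjusted p = 0.00173, limma), and 2.09 without cow 4, whose free feeding array was the highest. SELENOW, a small selenoprotein abundant in muscle, rose from a median of 13.39 to 15.10, with a change of 1.75 ± 0.15 and no overlap (adjusted p = 0.00152, limma). MRPL40, a protein of the mitochondrial ribosome, rose by 1.87 ± 0.16 from 8.93 to 9.38 in restriction to 10.20 to 11.39 in free feeding (adjusted p = 0.00152, limma).

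Of 42 tested genes of glutathione and antioxidant defence, 9 rose and 0 fell, with a median change of 0.36 against 0.02 over all genes tested. That is 21.4% of the list, beside 12.9% of all genes higher. Without cow 4, 13 rose and 1 fell, beside 15.5% of all genes higher and 11.3% lower in that fit. Beyond GSTM2 and SELENOW, the called members were NQO1, a quinone reductase, at 1.26, GPX1, a peroxidase that uses glutathione, at 1.48, GSTA4 at 1.34, TXN2, the mitochondrial thioredoxin, at 1.16, GSTK1 at 1.21, MGST3 at 0.88 and GSTA1 at 0.59. For 7 of the 9 the groups did not overlap, beside 1474 of all 3275 genes called. GPX1 was the exception among the larger changes, with 5 cows higher and -0.11 in cow 4. The calls of GSTK1, MGST3 and GSTA1 were each lost without cow 5 and without 1 or 2 other cows, and that of GPX1 without cow 1.

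DDIT4L, an inhibitor of the growth kinase complex mTORC1, rose by 2.15 ± 0.37 (SE; adjusted p = 0.00717, limma). Its levels were 12.60 to 14.05 in restriction (median 13.71) and 14.11 to 17.15 in free feeding (median 15.63), and the smallest change was 0.12 in cow 4. SHISA4 rose by 2.04 ± 0.28 (adjusted p = 0.00348, limma) and was also smallest in cow 4, at 0.60. Other large increases were NKAIN1 at 1.99, ENTREP1 at 1.98, TAF10, a subunit of the general transcription factor TFIID, at 1.92, OST4, a subunit of the enzyme that adds sugar chains to proteins, at 1.88, and the histone gene H2BC4 at 2.41. In free feeding, cow 4 stood far above the other cows for H2BC4 and far under them for OST4. Histone genes of this family are near-identical in coding sequence, so its probe signal may include that of its relatives.

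The fatty acid synthesis genes had mostly positive changes, by far the largest in cow 4. The list's median change was 1.46 over 17 tested genes, 16 of which had a positive change, but 4 rose past the threshold and 0 fell. That is 23.5% of the list higher, beside 12.9% of all genes. By cow, the median of the list was 0.28, 0.98, 0.74, 4.10, 0.60 and 1.12 in cows 1 to 6. Without cow 4 the median was 0.77 and 7 of 17 genes rose, which is 41.2% beside 15.5% of all genes in that fit. The 4 called with all cows were regulators and 1 elongase: MID1IP1, which activates acetyl-CoA carboxylase, at 1.98, MLXIPL, the sugar-sensing transcription factor ChREBP, at 1.13, SREBF1, the lipogenic factor SREBP1, at 0.83 and ELOVL1, which lengthens very long chain fatty acids, at 0.57. For each of the 4 the groups did not overlap and the call held with any 1 cow left out.

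MID1IP1 lay at 12.19 to 13.06 in restriction (median 12.38) and 13.69 to 16.40 in free feeding (median 14.09). MLXIPL lay at 7.09 to 7.50 in restriction (median 7.25) and 7.84 to 9.59 in free feeding (median 8.16). Cow 4 was highest for both, and the remaining cows were still above every restriction array. SREBF1 was highest in cow 2, with a median of 8.49 in restriction and 9.31 in free feeding and no overlap of the groups.

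The enzymes themselves varied more. ACSS2, which turns acetate into acetyl-CoA for lipid synthesis, had levels of 9.01 to 10.44 in restriction (median 9.36) and 10.53 to 18.39 in free feeding (median 11.55). The groups did not overlap, yet with cow 4 the change of 3.12 ± 0.98 missed the threshold (adjusted p = 0.0527, limma). Without cow 4 it was 1.89 (adjusted p = 0.0037, limma). FASN, the fatty acid synthase, reached 18.88 in cow 4 and 8.83 to 11.91 in the other cows during free feeding, against 8.61 to 10.26 in restriction. Its change of 2.49 ± 1.12 did not pass (adjusted p = 0.139, limma), nor did the 1.11 without cow 4 (adjusted p = 0.0579, limma). THRSP, a lipogenic protein related to MID1IP1, changed by 3.67 ± 1.25 (adjusted p = 0.067, limma) and by 2.23 without cow 4 (adjusted p = 0.0373, limma).

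AGPAT2, which adds the middle acyl chain in triglyceride synthesis, had the largest increase called. Its levels were 9.58 to 10.35 in restriction (median 10.02), and 10.78 to 17.77 in free feeding (median 11.87). All 6 free feeding arrays lay above all restriction arrays, but the change of 2.68 ± 0.82 (SE; adjusted p = 0.0481, limma) included 7.73 in cow 4. Without cow 4 it was 1.67 (adjusted p = 0.00544, limma), and the call was lost when any of the other cows was left out. NIPSNAP1, a mitochondrial protein linked to removal of damaged mitochondria, showed the same pattern, at 1.99 ± 0.55 with all cows and 1.30 without cow 4 (adjusted p = 0.0348 and 0.00169, limma). AQP7, a channel for glycerol, rose by 2.06 ± 0.47 (adjusted p = 0.0182, limma), most in cow 4 at a free feeding level of 17.18. Its groups overlapped, and the call was lost without cow 2 or cow 5.

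Adipocyte markers were measured beside these genes, and they did not move in 1 direction. Of 14 tested, 0 rose and 0 fell, and without cow 4 these counts were 0 and 1 of 12. The list's median by cow was -1.61, -1.74, -0.36, 5.05, -0.66 and 0.28 in cows 1 to 6. The mean level of the list was 7.87 to 10.54 on the restriction arrays, and 13.68 in cow 4 and 7.51 to 8.94 in the other cows on the free feeding arrays. ADIPOQ, the fat cell hormone adiponectin, went from 14.73 to 8.84 in cow 1, from 14.82 to 11.23 in cow 2 and from 13.59 to 18.37 in cow 4. In cow 2 the fatty acid synthesis list was higher in 17 of 17 genes, while 3 of 14 adipocyte markers were higher. In cow 1 these counts were 11 of 17 and 3 of 14, and in cow 4 they were 14 of 17 and 13 of 14. The part of fat cell content in the lipid changes was not tested beyond these values. Extracellular matrix genes were likewise lowest in cows 1 and 2 and highest in cow 4, with medians of -1.30 in cow 1, -0.72 in cow 2 and 1.79 in cow 4, and 0 of 27 passed in either direction.

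**Figure D2:**
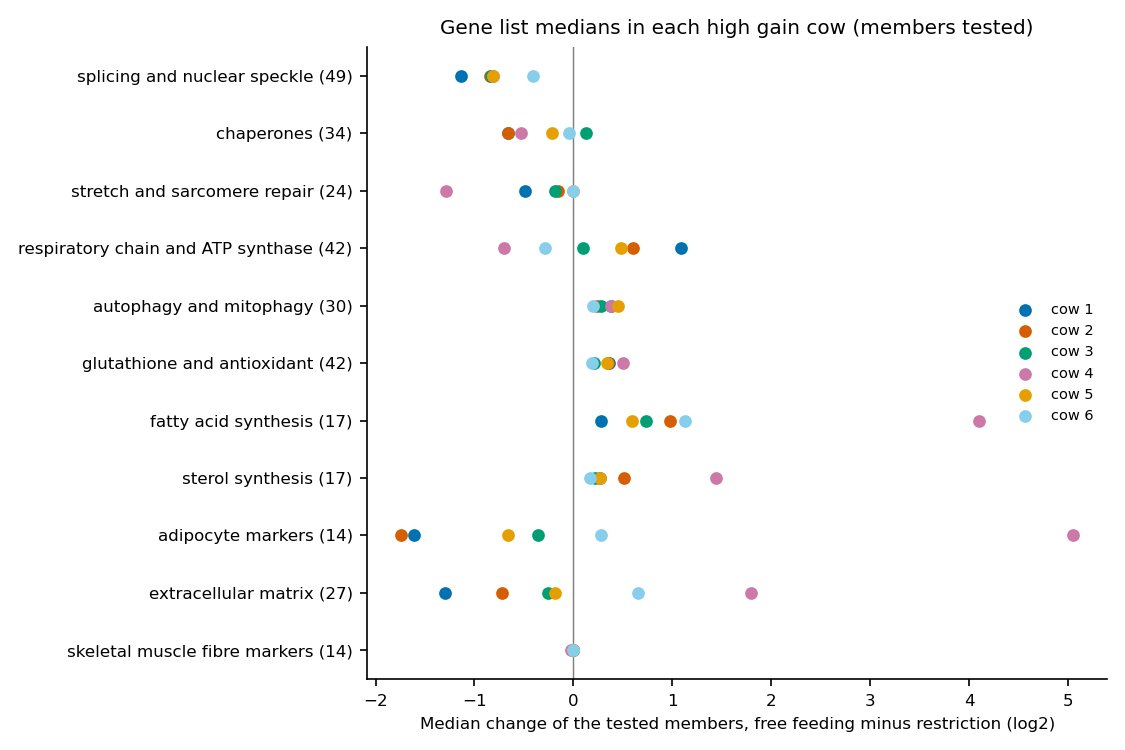
Median change of the tested members of 11 gene lists in each high gain cow, free feeding minus restriction on the log2 scale, with the number of tested members in brackets. Cow 4 stands apart for fatty acid synthesis (4.10) and adipocyte markers (5.05), while splicing genes lie between -0.41 and -1.14 and autophagy genes between 0.20 and 0.45 in all 6 cows.

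Sterol synthesis enzymes were higher for a few members. Of 17 tested, 4 rose and 0 fell (23.5% beside 12.9% of all genes higher), with a median of 0.54. FDFT1, the squalene synthase, lay at 10.88 to 11.86 in restriction (median 11.29) and 12.46 to 12.90 in free feeding (median 12.58), a change of 1.27 ± 0.22 with no overlap (adjusted p = 0.00709, limma). EBP, a sterol isomerase, rose by 1.05, MVK, the mevalonate kinase, by 0.65, and SREBF2, the factor that drives the pathway, by 0.44. The SREBF2 call was lost when any cow but cow 4 was left out. Without cow 4, 7 rose (41.2% beside 15.5% of all genes) and 1 fell.

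Some genes of fat oxidation and ketone use rose. Of 21 beta oxidation genes 5 rose and 0 fell (23.8% beside 12.9% of all genes higher), but the median change was 0.08 and 9 of the 21 had a negative change. By cow the median was -0.39 in cow 3 and -0.26 in cow 6 and positive in the other cows, and with 1 cow left out 1 to 6 genes rose. The called genes included ACADS, the dehydrogenase for short acyl chains, and CPT2, which releases acyl chains inside mitochondria. ACADS lay at 10.31 to 11.12 in restriction (median 10.93) and 12.27 to 13.58 in free feeding (median 12.52), a change of 1.83 ± 0.25 with no overlap (adjusted p = 0.00334, limma). CPT2 rose by 1.12 ± 0.27 (adjusted p = 0.0227, limma), with overlap, and was not called without cow 1, 2 or 5. Of 8 genes for ketone body and acetate use 2 rose (25%, beside 12.9% of all genes) and 0 fell. ACSS1, the mitochondrial acetyl-CoA synthetase, rose by 0.96, and BDH1, which interconverts the ketone bodies, rose by 1.96. BDH1 changed by 0.23 in cow 3 and 4.11 in cow 2, and its call was lost without cow 1, 2 or 5. PDK4, a kinase that blocks glucose oxidation in fasting, ranged from 11.25 to 19.23 in restriction and from 12.42 to 17.64 in free feeding. Its change ran from -6.32 in cow 5 to 2.95 in cow 3, with 2 cows higher, so its mean of -1.59 ± 1.17 did not pass (adjusted p = 0.347, limma). PDK2, its constitutive relative, rose by 1.00 (adjusted p = 0.0421, limma), a call that was lost when any cow but cow 4 was left out.

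The respiratory chain and ATP synthase list had medians of different sign in different cows. Of 42 tested genes 6 rose (14.3%, beside 12.9% of all genes) and 2 fell (4.76%, beside 10.1%). By cow, 40, 38, 23, 8, 32 and 13 of the 42 were higher in cows 1 to 6, with medians of 1.09, 0.60, 0.10, -0.70, 0.49 and -0.29. Without cow 4, 12 rose and 2 fell (28.6% and 4.76%, beside 15.5% and 11.3% of all genes). COX5B, a subunit of cytochrome oxidase, lay at 10.37 to 12.08 in restriction (median 11.43) and 11.54 to 13.31 in free feeding (median 13.00), a change of 1.35 ± 0.27 (adjusted p = 0.0116, limma). NDUFS7 of complex I rose by 1.23, and the ATP synthase subunit ATP5F1B rose by 0.83. ATP5PB, another ATP synthase subunit, fell by 0.92, and its groups did not overlap. Of 20 citric acid cycle genes 0 rose and 2 fell (0% and 10%, beside 12.9% and 10.1% of all genes). The 2 were IDH3A and DLD, subunits of enzymes in and beside the cycle, which fell by 1.00 and 1.03. Without cow 4, 5 of the 20 rose (25%, beside 15.5% of all genes) and 2 fell. The cycle's median by cow was 0.75, 0.44, 0.16, -0.49, 0.21 and -0.25 in cows 1 to 6. The calls of IDH3A and DLD were lost without cow 3 or cow 6, and that of NDUFS7 without cow 2, 3 or 5.

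Among 20 regulators of oxidative metabolism 5 rose (25%, beside 12.9% of all genes) and 2 fell (10%, beside 10.1%). ESRRA, a nuclear receptor that drives mitochondrial genes, lay at 7.71 to 8.32 in restriction and 8.62 to 9.72 in free feeding (median 9.27), a change of 1.20 ± 0.14 with no overlap (adjusted p = 0.00239, limma). PPARA, the receptor that senses fatty acids, rose by 0.92. MEF2C, a muscle transcription factor, fell by 1.23 ± 0.23 from a median of 16.45 to 15.47 with no overlap (adjusted p = 0.00926, limma). Slow fibre genes had 0 of 14 members called in either direction. Of 13 fast fibre genes 0 rose, and MYH4, a fast myosin heavy chain, fell by 0.55. Contractile genes such as MYL2 and TNNC2 were among 12 genes saturated on all 12 arrays, meaning within 0.05 of the highest value, and no change of theirs could be seen. In glycolysis 1 of 19 genes rose (5.26%) and 2 fell (10.5%), beside 12.9% and 10.1% of all genes. Without cow 4 the counts were 4 and 0 (21.1% and 0%, beside 15.5% and 11.3%). LDHA, the lactate dehydrogenase of fast fibres, fell by 1.63 and FBP2, the muscle fructose bisphosphatase, fell by 1.28, while PFKFB1 rose by 1.07. PPARA, MYH4, PFKFB1, LDHA and FBP2 each lost their call without cow 1, 2 or 5. Neither LDHA nor FBP2 was called without cow 4 (adjusted p = 0.0684 and 0.0709, limma).

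Genes of RNA splicing and of nuclear speckles, the bodies where splicing factors gather, had the most calls of the 45 lists. Of 49 tested genes 32 fell and 0 rose, which is 65.3% beside 10.1% of all genes lower, with a median of -0.81. Without cow 4 the counts were the same, beside 11.3% of all genes. For 23 of the 32 the groups did not overlap, beside 1474 of all 3275 genes called, and 18 lay past the odorant receptor limit. The median was negative in every cow, from -0.41 in cow 6 to -1.14 in cow 1. With the deposited values 27 fell and 0 rose. Over all genes tested, 0.965% were called lower past that limit. The call held for 24 of the 32 with any 1 cow left out.

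Within the list, cyclins, kinases, SR proteins and hnRNPs all had members that fell. CCNL1, a cyclin that sits in speckles and modulates splicing, lay at 11.12 to 12.11 in restriction (median 11.81) and 9.68 to 10.41 in free feeding (median 9.82), a change of -1.77 ± 0.18 (SE; adjusted p = 0.00179, limma). RSRC2, a serine and arginine rich speckle protein, lay at 10.84 to 12.56 (median 11.98) and 9.64 to 10.28 (median 9.79), a change of -2.04 ± 0.26 (adjusted p = 0.00315, limma). In neither gene did any free feeding array reach the lowest restriction array. SFPQ, which binds splicing factors and paraspeckle RNA, fell by 1.55, PNISR by 1.62, LUC7L3 by 1.51, CLK4, a kinase of SR proteins, by 1.39 and HNRNPA2B1 by 1.39. SRSF1 and SRSF3, SR proteins that help define exons, fell by 1.31 and 1.08.

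DDX5, an RNA helicase that acts in splicing and transcription, showed how cow 4 could stand apart within the list. It fell by 1.79 to 2.89 in 5 cows and by 0.11 in cow 4, whose free feeding level of 13.80 was close to its restriction level of 13.91. The change was -1.99 ± 0.34 with all cows (adjusted p = 0.00709, limma) and -2.37 without cow 4 (adjusted p = 0.00166, limma). No free feeding array reached the lowest restriction array. Over all tested genes, those that rose had a median genomic span of 14104 bases, those that fell 23323 and those not called 23473, by RefSeq annotation. The rank correlation of change with span was -0.09 across genes, given as a description since genes are not independent.

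**Figure D3:**
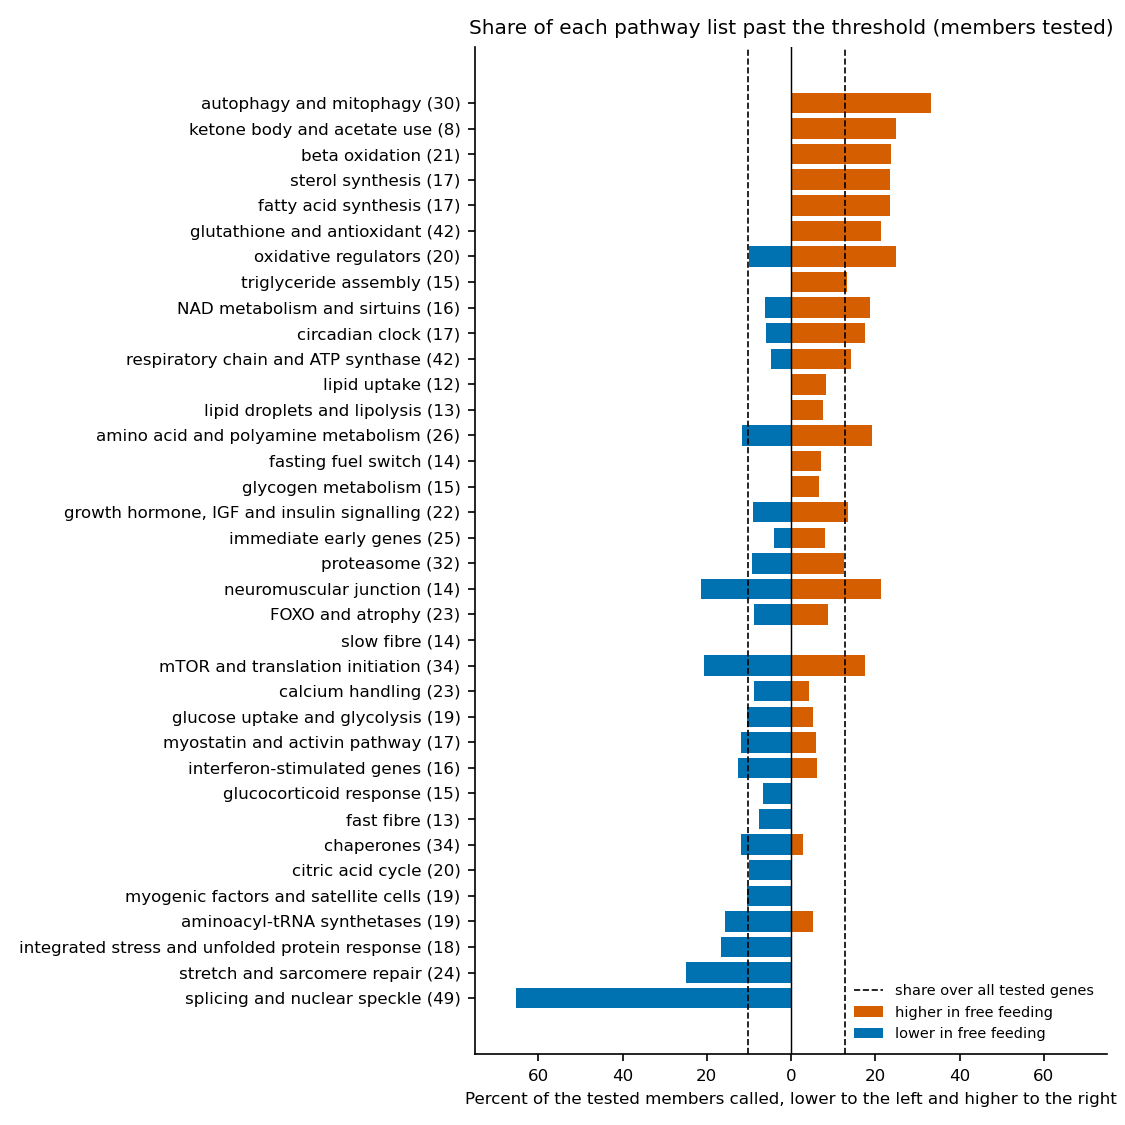
Percent of the tested members of each of 36 pathway lists called at an adjusted p under 0.05, with genes lower in free feeding to the left and higher to the right, and the number of members tested in brackets. Dashed lines mark the shares over all 14202 genes, 10.1% lower and 12.9% higher, and splicing genes reach 65.3% on the lower side.

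Stretch and sarcomere repair genes supplied several of the largest decreases. Of 24 tested genes 6 fell (25%, beside 10.1% of all genes) and 0 rose, with a median of -0.41. The list's median in cow 4 was -1.29. Without that cow the median was -0.18, 6 genes fell (25%, beside 11.3% of all genes) and 2 rose. ANKRD1, a nuclear and sarcomeric protein induced by stretch and injury, lay at 16.82 to 19.87 in restriction (median 18.73) and 14.28 to 16.85 in free feeding (median 15.37). Its change was -2.81 ± 0.52 (SE; adjusted p = 0.00889, limma), from -0.25 in cow 3 to -4.34 in cow 5. The array of cow 2 in restriction was at the top of the scale, so its fall may be understated. NEXN, an actin-binding protein of the Z-disc, lay at 17.23 to 19.70 (median 17.90) and 14.73 to 17.11 (median 16.36), with a change of -2.03 ± 0.36 and no overlap (adjusted p = 0.00774, limma). ROCK2, a kinase that raises actomyosin tension, changed by -2.11 ± 0.49 (adjusted p = 0.0191, limma), and its relative ROCK1 by -1.08, a call lost without cow 1, 2, 3 or 5. NRAP and KLHL41, which take part in building myofibrils, fell by 0.94 and 0.62.

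A group of the decreases shared one pattern across cows. Cow 2 had the highest restriction level for 14 of the 15 largest decreases, and the largest fall for 9 of them. ABRA, which couples actin to the serum response factor, lay at 16.94 in cow 2, 14.16 in cow 5 and 12.62 in cow 1 during restriction, and at 9.87 to 10.86 in the other cows. In free feeding it lay at 8.31 to 10.87, so the groups differed mainly through 3 cows, with a change of -2.70 ± 0.65 (adjusted p = 0.0215, limma). IFRD1, a transcriptional co-regulator, RETREG1, a receptor for autophagy of the endoplasmic reticulum, and ROCK2 likewise fell by over 2 in cows 1, 2 and 5. All 4 genes lost their call when cow 1 or cow 5 was left out. RCAN1, which is induced by calcineurin and inhibits it, fell by 2.05 ± 0.35 (adjusted p = 0.00707, limma), from a median of 15.18 to 13.31 with overlapping groups.

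DNAJB4, a co-chaperone that works with heat shock protein 70, had the largest decrease called. It lay at 12.96 to 18.16 in restriction (median 15.28) and 10.95 to 13.52 in free feeding (median 12.57), and its change ran from -0.72 in cow 6 to -5.54 in cow 2. The change was -2.86 ± 0.56 (adjusted p = 0.011, limma). Of 34 chaperone genes 4 fell (11.8%, beside 10.1% of all genes) and 1 rose (2.94%, beside 12.9%). Without cow 4 the counts were 6 and 3 (17.6% and 8.82%, beside 11.3% and 15.5%). HSPA8, the constitutive heat shock protein 70, fell by 1.04 with no overlap, and HSF2 and DNAJC7 fell by 1.08 and 1.14. HSPB1, a small heat shock protein, rose by 0.93, a call lost without cow 1, 3, 5 or 6. DDIT3, the stress factor CHOP, fell by 1.03 ± 0.14 from 9.32 to 9.77 in restriction to 8.31 to 8.75 in free feeding (adjusted p = 0.0036, limma).

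**Figure D4:**
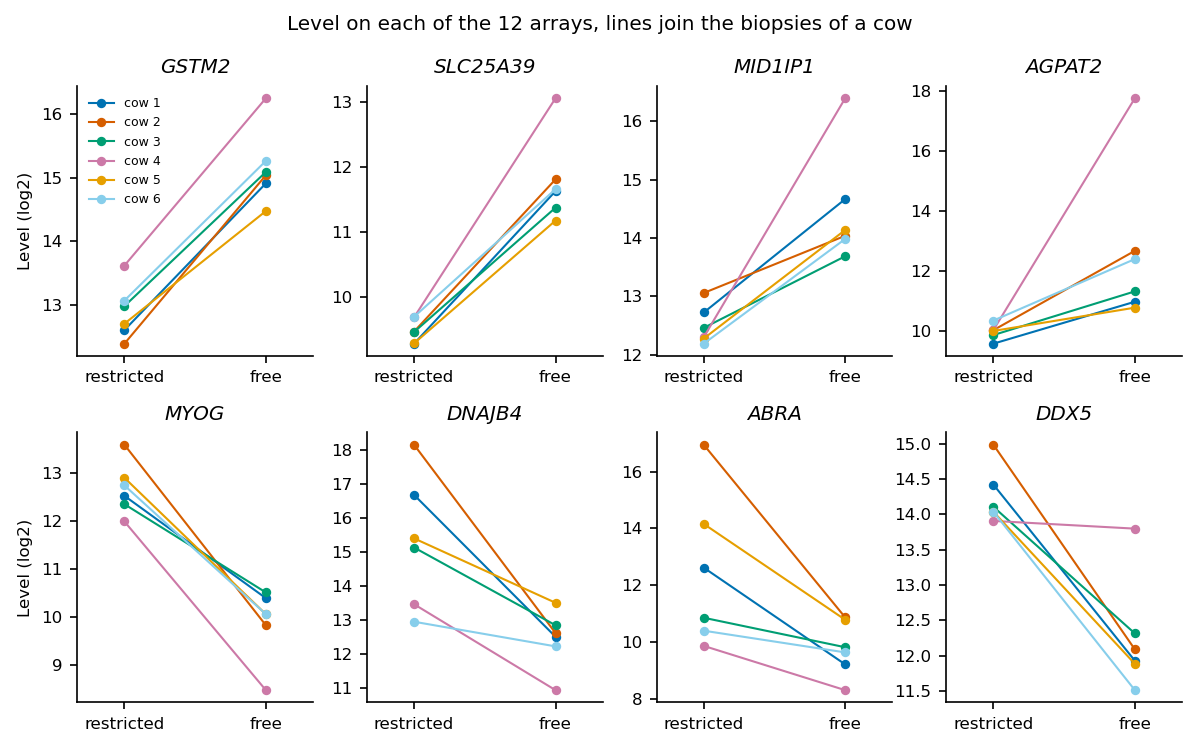
Levels on the log2 scale of 8 genes on each of the 12 arrays, with restriction on the left and free feeding on the right of each panel and lines that join the 2 biopsies of a cow. For GSTM2, SLC25A39, MID1IP1, AGPAT2, MYOG and DDX5 the groups do not overlap, and for DNAJB4 and ABRA the restriction levels spread from 12.96 to 18.16 and from 9.87 to 16.94.

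MYOG, the myogenic factor myogenin, which drives myoblast differentiation and rises in denervated muscle, fell in all 6 cows. Its levels were 11.98 to 13.59 in restriction (median 12.63) and 8.46 to 10.50 in free feeding (median 10.05). The groups lay more than 1 log2 unit apart, and the change was -2.80 ± 0.27 (SE; adjusted p = 0.00173, limma), or -2.66 without cow 4, which had the lowest free feeding level. Of 19 myogenic and satellite cell genes MYOG and MEOX2, a homeobox factor, were the 2 that fell (10.5%, beside 10.1% of all genes), and 0 rose. MEOX2 fell by 1.68 ± 0.35 (adjusted p = 0.0132, limma), by 3.26 in cow 1 and 0.15 in cow 4. At the neuromuscular junction 3 of 14 genes rose and 3 fell (21.4% each way, beside 12.9% and 10.1% of all genes). Without cow 4, 7 rose (50%, beside 15.5% of all genes) and 3 fell. CHRNE, the adult subunit of the acetylcholine receptor, rose by 1.54, AGRN, the nerve signal that clusters the receptor, by 0.79 and CHRNG, the fetal subunit, by 0.37. All restriction levels of AGRN (5.90 to 6.73) lay below the filter on dim genes at 6.74, so it entered the test through its free feeding levels (6.84 to 7.71). UTRN, which links the junction's membrane to actin, and CHRNB1, another receptor subunit, fell by 0.88 and 0.85. CHRNE was not called without cow 5, and CHRNG, UTRN and CHRNB1 were not called without cow 1, 2, 3 or 6.

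Of 30 autophagy genes tested, 10 rose by small amounts and 0 fell (33.3% beside 12.9% of all genes). The list's median was 0.33, and 7 genes had a negative change that did not pass. Without cow 4, 11 rose (36.7% beside 15.5%), and with another cow left out as few as 4 did. By cow the median was 0.20 to 0.45. ATG13, part of the complex that starts autophagy, lay at 8.83 to 9.35 in restriction (median 9.09) and 9.73 to 10.55 in free feeding (median 10.06), a change of 0.96 ± 0.14 with no overlap (adjusted p = 0.00442, limma). ULK1, the kinase of that complex, rose by 0.66, ATG5 by 0.80, GABARAP, which coats autophagosomes, by 0.74 and TFEB, the factor that drives lysosomal genes, by 0.52. All 10 changes were under the odorant receptor limit of 1.07, and 4 of the 10 were called with any 1 cow left out. In the FOXO and atrophy list 2 of 23 rose and 2 fell (8.70% each way, beside 12.9% and 10.1% of all genes). Without cow 4 the counts were 5 and 3 (21.7% and 13.0%, beside 15.5% and 11.3%). FBXO32, the atrophy ligase atrogin-1, had a change of 1.38 ± 0.51 that did not pass (adjusted p = 0.0826, limma), and FOXO1 one of -1.36 ± 0.64 (adjusted p = 0.156, limma). Without cow 4 these were 1.68 and -1.87, and both passed (adjusted p = 0.0429 and 0.0460, limma).

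In the growth hormone, IGF and insulin list 3 of 22 genes rose (13.6%) and 2 fell (9.09%), shares that lie beside 12.9% and 10.1% over all genes. Without cow 4, 4 rose and 4 fell (18.2% each way, beside 15.5% and 11.3%). GHR, the growth hormone receptor, lay at 13.71 to 14.31 in restriction (median 14.12) and 14.51 to 15.61 in free feeding (median 15.10), a change of 1.03 ± 0.17 with no overlap (adjusted p = 0.00645, limma). STAT5B, which carries its signal to the nucleus, rose by 1.50 ± 0.23 (adjusted p = 0.00481, limma), and SOCS2, its feedback inhibitor, fell by 0.56, a call lost without cow 1, 3, 5 or 6. The median of SOCS2 in free feeding was 6.63, below the filter on dim genes at 6.74. Of 34 genes of mTOR and translation initiation 6 rose (17.6%) and 7 fell (20.6%), beside 12.9% and 10.1% of all genes. EIF4E, which binds the cap of mRNAs, fell by 1.70 ± 0.24 from a median of 13.97 to 12.30 with no overlap (adjusted p = 0.0039, limma). EIF4EBP2, a repressor of EIF4E, rose by 1.29 ± 0.17, and EIF5A, which aids elongation, by 1.52 ± 0.19, neither with overlap (adjusted p = 0.0033 and 0.0031, limma). In the myostatin and activin list 1 of 17 genes rose (5.88%) and 2 fell (11.8%), beside 12.9% and 10.1% of all genes. The list's median was -0.04. Without cow 4, 3 rose and 3 fell (17.6% each way, beside 15.5% and 11.3%). The gene that rose with all cows was GDF11, a ligand related to myostatin. It rose by 1.60 ± 0.28 (adjusted p = 0.00774, limma), though by 0.07 in cow 4. Of 32 proteasome genes 4 rose (12.5%) and 3 fell (9.4%), beside 12.9% and 10.1% of all genes. The largest of these changes were PSMB1 at 1.20 and PSMD12 at -0.94, the latter not called without cow 1.

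In amino acid and polyamine metabolism 5 of 26 rose and 3 fell (19.2% and 11.5%, beside 12.9% and 10.1% of all genes). SRM, the spermidine synthase, rose by 1.30, SHMT2, the mitochondrial serine hydroxymethyltransferase, by 1.08 and SLC38A3, a glutamine transporter, by 0.88. AZIN1, which protects ornithine decarboxylase, fell by 1.17, SLC38A2, a transporter induced by amino acid shortage, by 1.17 and AMD1, which supplies the propylamine donor for polyamines, by 1.43. Among clock genes 3 of 17 rose and 1 fell (17.6% and 5.88%, beside 12.9% and 10.1% of all genes). Without cow 4, 7 rose (41.2%, beside 15.5% of all genes) and 1 fell, and with another cow left out as few as 1 rose. DBP, an output factor of the clock, lay at 7.20 to 8.21 in restriction (median 7.30) and 8.28 to 8.95 in free feeding (median 8.61), a change of 1.14 ± 0.11 with no overlap (adjusted p = 0.00173, limma). NR1D1, the repressor REV-ERB alpha, rose by 1.40, and CRY1, a repressor of the core loop, fell by 0.86. The calls of NR1D1, CRY1 and AMD1 were each lost without cow 1 or cow 5. The hour of each biopsy is not stated.

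The remaining lists held few calls, to be read beside 12.9% of all genes higher and 10.1% lower. In lipid handling, 2 of 15 triglyceride assembly genes, 1 of 13 droplet and lipolysis genes and 1 of 12 uptake genes rose and 0 fell. PLIN5, which ties droplets to mitochondria, rose by 0.86. Of 18 genes of the integrated stress and unfolded protein response 3 fell and 0 rose, and of 19 aminoacyl-tRNA synthetases 3 fell (15.8%) and 1 rose (5.26%). Without cow 4 the synthetases gave 5 higher and 1 lower (26.3% and 5.26%, beside 15.5% and 11.3% of all genes). Immediate early genes gave 2 higher and 1 lower of 25, with EGR2 at 0.83, JUNB at 0.75 and JUND at -0.97, and each of these calls was lost without cow 1 or cow 3. The median of EGR2 in restriction was 6.53, below the filter on dim genes, so it entered the test through its free feeding levels. Of 15 glucocorticoid response genes, ZBTB16, a zinc finger repressor induced by glucocorticoids, fell by 1.50, a call lost without cow 1, 2 or 5. Of 23 calcium handling genes 1 rose (4.35%, beside 12.9% of all genes) and 2 fell. Without cow 4, 8 rose (34.8%, beside 15.5%) and 2 fell. TRDN, the triadin of the calcium release complex, lay at 19.00 to 19.23 in restriction (median 19.18) and 18.36 to 18.68 in free feeding (median 18.54), a change of -0.61 ± 0.09 with no overlap (adjusted p = 0.00362, limma). Of 16 interferon-stimulated genes 1 rose and 2 fell, with MX1, an antiviral GTPase, at -0.98. Without cow 4, 4 of 25 immediate early (16%), 3 of 15 glucocorticoid response (20%) and 3 of 13 droplet genes (23.1%) rose, beside 15.5% of all genes. In that fit 1, 2 and 0 of them fell (4%, 13.3% and 0%, beside 11.3% of all genes). In NAD metabolism 3 of 16 rose and 1 fell, the largest being SIRT2, a deacetylase that uses NAD, at 1.16. Without cow 4, 5 rose and 1 fell (31.25% and 6.25%, beside 15.5% and 11.3% of all genes).

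Most markers of other cells were not called, while over all genes tested 12.9% were higher and 10.1% lower. In the high gain cows 0 of 16 fibroblast, 0 of 11 smooth muscle and 0 of 7 red blood cell markers were called, although all 16 fibroblast markers were higher in cow 4. Macrophage and leukocyte markers were mixed, with 5 of 21 higher (23.8%) and 3 lower (14.3%). CD74 and C1QA, genes of antigen presentation and complement in macrophages, rose by 1.21 and 1.08, and PTPRC and CD53, general leukocyte surface genes, fell by 1.23 and 0.88. Restriction levels of C1QA had a median of 6.15, below the filter on dim genes at 6.74, so it entered the test through its free feeding levels (6.75 to 8.14). Without cow 4, 3 of 20 of these markers were higher and 4 lower (15% and 20%, beside 15.5% and 11.3% of all genes). Of 8 Schwann cell and nerve markers, PMP22, a myelin protein also made by fibroblasts, fell by 1.53 and CNP rose by 0.46. Of 15 endothelial markers 2 rose and 1 fell (13.3% and 6.67%). Without cow 4, 1 rose and 3 fell (6.67% and 20%, beside 15.5% and 11.3% of all genes). CD74 was not called without cow 2, 3 or 5, PTPRC without cow 1 or 6, PMP22 without cow 1, 2 or 5, and CNP when any cow but cow 4 was left out.

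The change in the high gain cows was set against that in the 6 low gain cows in a fit of all 24 arrays, where the question was whether muscle of the 2 gain classes responded differently. Among the low gain arrays, the restriction array of low gain cow 4 stood apart, with a median correlation of 0.862 with its group while the other 11 reached at least 0.971. The low gain values are therefore given with and without that cow, which is a different animal from high gain cow 4. No gene passed: 0 of 14197 (0%) differed in their change by limma, with a smallest adjusted p that rounds to 1.00, and 511 genes (3.60%) had an unadjusted p under 0.05. Without low gain cow 4 it was 0 of 14201, with a smallest adjusted p of 0.925 and 735 genes at an unadjusted p under 0.05. The 15 largest increases were positive in the low gain cows for 15 of 15 genes, with a median of 1.87 beside 1.99 in the high gain cows, and of 1.73 without low gain cow 4. The 15 largest decreases were negative in the low gain cows for 8 of 15, with a median of -0.62 beside -2.05. Without low gain cow 4 they were negative for 14 of 15, with a median of -0.81. The difference between classes had an unadjusted p under 0.05 for 8 of these 15, and for 9 without that cow, and 0 passed after adjustment. For the 15 increases these counts were 0 with all cows and 2 without low gain cow 4, namely GSTM2 and DDIT4L. In that fit DDIT4L changed by 0.04 ± 0.46 in the low gain cows, a difference of 2.12 (unadjusted p = 0.00484, limma). With all cows its low gain change was 0.95 ± 0.70. The genes were chosen for their size in the high gain cows, which by itself makes them larger there.

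In the fit of all 24 arrays MYOG changed by -2.79 ± 0.38 (SE, n = 6) in the high gain cows and by -0.84 ± 0.38 in the low gain cows, or by -1.34 without low gain cow 4. The difference with all cows was -1.95 ± 0.54 (unadjusted p = 0.00296, adjusted p = 1.00, limma). ROCK2 changed by -2.11 ± 0.41 in the high gain cows and by 0.01 ± 0.41 in the low gain cows, a difference of -2.12 ± 0.58 (unadjusted p = 0.00279, adjusted p = 1.00, limma). In the low gain cows ANKRD1 changed by 0.27 ± 0.66 and ABRA by 0.87 ± 0.82, and without low gain cow 4 these values were -0.52 and -0.05. The smallest unadjusted p belonged to NMRK1, a nicotinamide riboside kinase that leads to NAD, which changed by 0.40 ± 0.12 in the high gain cows and by -0.39 ± 0.12 in the low gain cows. The difference was 0.79 ± 0.17 (unadjusted p = 0.000326, adjusted p = 1.00, limma), and 0.69 without low gain cow 4. In that fit splicing genes had a median change of -0.80 in both classes, and of -0.50 in the low gain cows without low gain cow 4. Other lists had medians that differed in sign or size between the classes with all cows. Stretch and sarcomere repair genes had medians of -0.40 in the high gain and 1.00 in the low gain cows, the latter 0.06 without low gain cow 4. Slow fibre genes had medians of 0.03 and 1.38, the latter 0.01 without that cow. Chaperones had medians of -0.49 and 0.53, and immediate early genes of -0.11 and 0.49, the low gain medians being 0.25 and 0.44 without that cow. These medians were not tested between classes. Both classes were measured in the same 2 array sets, so a shift between sets would be present in both.

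**Figure D5:**
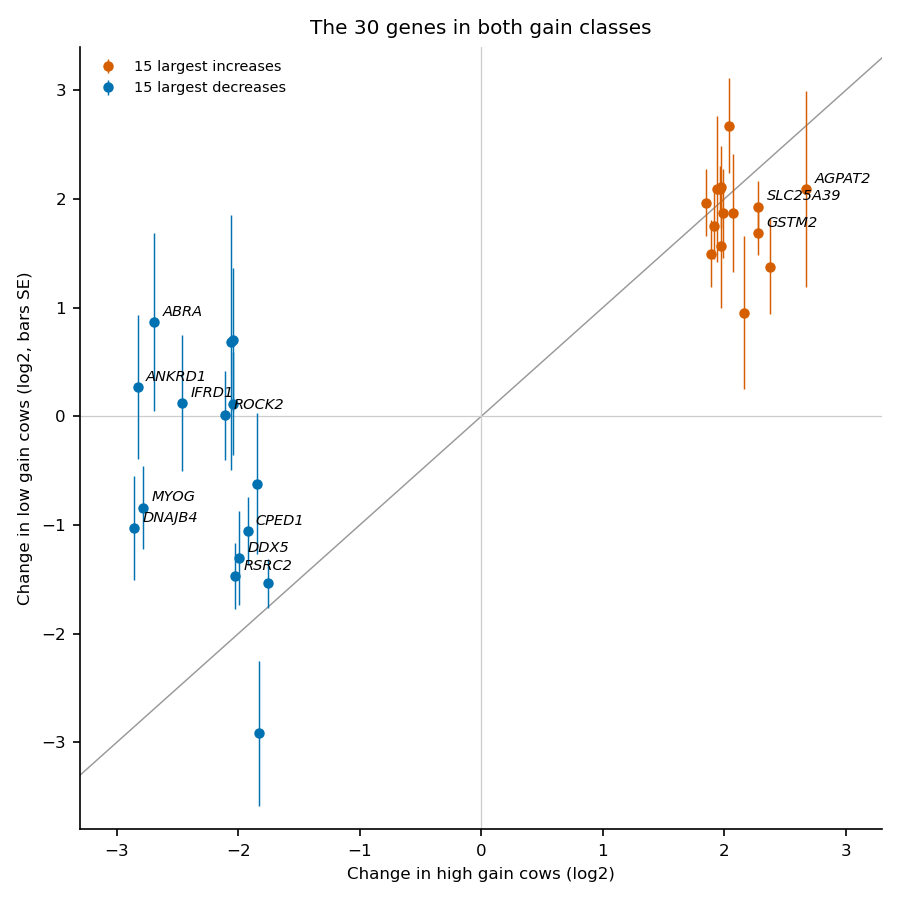
Change in high gain cows (x axis) against change in low gain cows (y axis, bars are SE, n = 6 cows), both free feeding minus restriction on the log2 scale from the fit of all 24 arrays, for the 30 genes with the largest changes in the high gain cows. The grey diagonal marks equal change, and all 15 increases are positive in both classes while 8 of 15 decreases are negative in both. Without low gain cow 4, whose restriction array stood apart, 14 of 15 were negative in both.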

How the data were processed

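The deposited table held 1 log2 value per feature and array, taken as log2 from its range because the base is not stated. Per the submitters' processing notes, the authors used Affymetrix Expression Console with Transcriptome Analysis Console. For both, the version is, like the normalization method, not given in the sources used here. Of 26773 features, 18790 were paired with 1 gene, 385 with several and 7598 with none by the platform annotation. The brightest of several features of a gene was kept. Values were quantile normalized over the 12 high gain columns, and genes whose mean fell below 6.74, the 25th percentile of features, were dropped. Saturation (values within 0.05 of an array set's maximum) affected 46 to 58 features per array.

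Changes were fitted in R 4.3.3 with limma 3.58.1, using lmFit, trended eBayes and a fixed block for each cow. The threshold was 0.05 after Benjamini-Hochberg adjustment. The block follows the animal number in the titles. A cow's 2 arrays correlated at 0.01 to 0.35 as deviations from their group means, with a median of 0.17. Arrays of different cows had a median near 0. The difference between gain classes was fitted on all 24 arrays. The functions were tested on simulated data.

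The naming rule took the 15 largest changes in each direction among called genes that moved the same way in all 6 cows, passing over symbols without a gene name. It also took the leading and called members of 45 lists. The text gives a part of these and some list members chosen after their values were seen, such as ACSS2, FASN, THRSP, ADIPOQ, PDK4, FBXO32 and FOXO1. The 45 lists and the choice of arrays were made with earlier results of these data known. Alternatives covered the normalization, dim filter, features, moderation, weights, block, samples and size limit, and leaving out each cow. Promoter motifs and GC content were not analysed here. The number of arrays limits the precision.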

Additional observations from a re-analysis of the deposited data

Results flagged for a closer look

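Of 105 groups of 6 values tested for a sample far from the others, 24 had one, and 21 of these were values of cow 4. Independent groups of normally distributed values would hold such a sample in about 1 in 20. These groups come from the same 12 arrays and share genes, and the single genes were chosen by their change. Their counts are therefore a description and do not measure an excess over chance. In free feeding, cow 4 lay far above the other cows for AGPAT2 (17.77), H2BC4 (11.29), SLC25A39 (13.05), NIPSNAP1 (13.84), MID1IP1 (16.40) and DDX5 (13.80). It lay far under them for SHISA4 (11.96), OST4 (13.87), MYOG (8.46) and NEXN (14.73). In restriction, cow 3 was low for NIPSNAP1 (7.85) and cow 2 was high for IFRD1 (15.73).

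List medians of the change in cow 4 were far above those of the other cows for adipocyte markers (5.05), fatty acid synthesis (4.10), lipid droplets and lipolysis (2.33), sterol synthesis (1.44) and lipid uptake (1.26). They were far under them for stretch and sarcomere repair (-1.29), calcium handling (-1.16), glycogen metabolism (-0.92), neuromuscular junction (-0.37) and mTOR and translation initiation (-0.16). The median of skeletal muscle fibre markers in cow 4 was also flagged, at only -0.027. Most of those markers lay close to the top of the scale, where changes cannot be seen. For smooth muscle and pericyte markers the cow that stood apart was cow 5 (-1.13).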

How the results depend on the processing

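The count of changed genes, 3275, was 2881 to 4074 under other normalizations, features of a gene, moderations, array weights, a random block and a fit of all 24 arrays. It moved to 4920 without the filter on dim genes, to 1948 with a filter at the 50th percentile, and to 0 when limma's treat tested for changes past the odorant receptor limit. Leaving out 1 cow at a time gave 1732 to 3813 genes: 1732 without cow 1, 2150 without cow 2, 1939 without cow 3 and 2086 without cow 5, each with fewer arrays, and 3813 without cow 4. Without the replicate block 3427 genes were called, of which 2936 were called with it, and the pairing changed the call of 3 of the 30 genes with the largest changes. The share of odorant receptor genes called was 22.7% to 32.3% under the alternatives run for it. The difference between gain classes gave 0 genes under all alternatives run for it. Of 229 genes followed, 228 kept their direction under all alternatives run, and PLIN1, which was not called, changed by -0.36, with -1.65 to 0.303 when 1 cow was left out, and was positive without cow 1 (0.303) and without cow 2 (0.226). The alternatives without high gain cow 4 for list counts and without low gain cow 4 for the difference between classes were chosen after seeing the data. Signal near the top of the scale limits what can be seen for contractile genes, and dim genes lie near background.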
